A study of Mus musculus with 7 samples.

Results

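The SIBLING genes of mouse chromosome 5 are 5 neighbouring genes for secreted, acidic, phosphorylated matrix proteins of dentin and bone: Dspp, Dmp1, Ibsp, Mepe and Spp1. Open chromatin around them was described in 7 ATAC-seq libraries, an assay in which a transposase cuts accessible DNA. The stretch ran from 50 kb before Dspp to 50 kb after Spp1, at chr5:104120703-104491053 in GRCm38 (370.4 kb), and every deposited peak with its summit there was taken. Peaks that shared at least 1 bp were joined across libraries. This gave 44 regions of 128642 on the autosomes, a region counting as inside if its centre was.

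SIBLING proteins bind calcium through runs of acidic and phosphorylated residues, and several carry the arginine-glycine-aspartate motif that integrins recognise. They are secreted mainly by odontoblasts, osteoblasts and osteocytes, which are mesenchymal cells, where some help mineral crystals to form and others restrain their growth. The family belongs with the enamel matrix proteins to the secretory calcium-binding phosphoproteins, and its genes lie side by side.

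The libraries fall into 5 groups. The embryonic group was first pharyngeal arch ectoderm at embryonic day 11.5, the covering layer that gives rise to tooth epithelium, peeled off its mesenchyme after Dispase II (2 libraries). Sox2-positive cells were sorted from the dissociated labial cervical loop of the lower incisor at postnatal day 2 (P2), as dental epithelial stem cells, by FACS from a line with GFP under the endogenous Sox2 promoter (2 libraries). The whole lower incisor, lower first molar and upper first molar at P2 gave 1 library each. Whole teeth hold epithelium and mesenchyme together, and no genotype is stated for them or for the embryos. Nothing says whether replicates came from separate animals, how many animals were pooled or whether there were batches.

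The lists held between 38326 and 80850 autosomal peaks. Their read depth is unknown, so counts are given for full lists and again for the 38000 autosomal peaks of each list with the smallest authors' p-values. For scale, 6 to 7 of 8 epithelial marker genes had a peak at their start in each library, among them Krt5, Krt14 and Cdh1 in all 7. Where no start is listed, as for Cdh1, Trp63, Spi1, Csf1r, Pecam1 and Cdh5, a peak at either outer gene end was counted in its place. Trp63, also an epithelial marker, had none at its outer ends in any library, and starts inside the gene were not searched. Each library had between 2 and 23 peaks within 50 kb of it. Of 11 dental mesenchyme and odontoblast markers, 6 had one in each ectoderm library, 10 and 9 in Sox2-positive replicates 1 and 2, and 10 to 11 in whole teeth. Over all autosomal protein-coding genes, the share with a start peak was 66.1% and 63.6% in ectoderm, 58.2% and 57.1% in Sox2-positive replicates 1 and 2, and 60.4% to 61.7% in whole teeth. Of 10 macrophage and osteoclast markers, 3 to 5 had a start peak in each library. Spi1, Cd68 and Acp5 had one in all 7, Ctsk in the 5 P2 libraries, Dcstamp in both molars and Fcgr1 in ectoderm replicate 1 alone. Ptprc, Csf1r, Adgre1 and Ocstamp had one in none. Of 6 endothelial markers, 1 to 3 had one: Kdr in all 7 libraries, Tie1 in 3, Cdh5 in 2, and Pecam1, Tek and Emcn in none. The part of such cells in the results was not tested.

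The start of Ibsp was the one SIBLING start that lay directly under peaks, and its RefSeq window (GRCm38.p6, 250 bases before to 50 after the listed start) is therefore printed first, with the windows of its neighbours that lacked such peaks for comparison. All 4 read along the plus strand. Capitals mark 3 kinds of motif, searched on both strands: the CCAAT box, which reads ATTGG when it lies on the other strand; a TATA-like box, either TTTAAA, which is its own complement, or TATAAA, which reads TTTATA on the other strand; and ACCACA, which reads TGTGGT there and is the core recognised by RUNX factors.
Ibsp, chr5:104299037-104299336: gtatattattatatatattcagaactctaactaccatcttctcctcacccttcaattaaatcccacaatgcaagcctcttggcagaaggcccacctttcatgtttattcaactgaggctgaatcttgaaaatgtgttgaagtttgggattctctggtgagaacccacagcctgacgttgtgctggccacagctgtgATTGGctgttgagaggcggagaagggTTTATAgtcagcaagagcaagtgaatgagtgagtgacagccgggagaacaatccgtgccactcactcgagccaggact
Dmp1, downstream of its 2 listed starts, chr5:104202367-104202666: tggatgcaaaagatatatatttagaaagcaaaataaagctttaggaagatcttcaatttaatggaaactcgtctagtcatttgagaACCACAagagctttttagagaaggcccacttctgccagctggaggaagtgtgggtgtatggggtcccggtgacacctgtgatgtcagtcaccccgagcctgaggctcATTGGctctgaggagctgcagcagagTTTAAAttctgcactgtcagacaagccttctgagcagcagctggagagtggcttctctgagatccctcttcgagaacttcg
Mepe, chr5:104325079-104325378: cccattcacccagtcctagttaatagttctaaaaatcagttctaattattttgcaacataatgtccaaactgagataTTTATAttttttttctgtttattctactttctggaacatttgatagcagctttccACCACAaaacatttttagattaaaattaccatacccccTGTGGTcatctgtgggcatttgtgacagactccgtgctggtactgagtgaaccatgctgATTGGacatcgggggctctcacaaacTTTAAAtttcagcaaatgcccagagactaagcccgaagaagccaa
Spp1, upstream of its 2 listed starts, chr5:104434861-104435160: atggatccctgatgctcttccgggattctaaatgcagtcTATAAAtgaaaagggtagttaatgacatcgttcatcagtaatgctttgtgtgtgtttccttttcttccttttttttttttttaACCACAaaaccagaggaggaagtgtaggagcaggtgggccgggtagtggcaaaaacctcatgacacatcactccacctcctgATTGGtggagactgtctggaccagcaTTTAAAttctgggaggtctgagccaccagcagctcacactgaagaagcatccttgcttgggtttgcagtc

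The Ibsp window held ATTGG from 54 bases before the start and TTTATA from 28 bases before it. Spp1 held ATTGG 46 bases and TTTAAA 20 bases before its start, and the printed Dmp1 window held them 57 and 31 bases before. In Mepe the order was the same but shifted, with ATTGG 21 bases before the listed start and TTTAAA beginning 6 bases in, counting the start base as 1. From the first base of ATTGG to the first base of the TATA-like box the distance was 26 bases in all 4 printed windows. The unprinted windows, of the other listed Dmp1 start and the other listed Spp1 start, held no such pair at any spacing. The exact spacing of 26 bases, with ATTGG followed by TTTAAA or TTTATA on the strand of the gene, was found in 17 of 32851 RefSeq windows of this length (0.0517%). Those windows belonged to 13 genes, of which 4 were Dmp1, Ibsp, Mepe and Spp1. Another was Sost, which encodes sclerostin, an osteocyte inhibitor of bone formation, and which is named here after the matches were seen. The rest were Gm30256, with 5 of the windows, Gm33539, Gm40986, Gm42352, Mbd3, Olfr776, Olfr799 and Vsnl1. At any spacing in this order the pair was in 2.03% of windows. Singly and on either strand, CCAAT was present in 37.4% of windows, and TTTAAA or TATAAA in 24.1%. The longer CCAATCA, read here as TGATTGG, was in 7.82% of windows and in those of Ibsp, Mepe, Spp1 and the first listed Dmp1 start. ACCACA was in 16.8% of windows, and lay in the printed Dmp1, Mepe and Spp1 windows but not in that of Ibsp. The spacing and the longer motif, which contains CCAAT, were picked after the windows were read, the SIBLING genes are related by descent, and a match is a description of letters, not of binding. No window for Dspp was among the sequences used.

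Across the whole stretch, peaks were few in ectoderm and many in whole incisor. The embryonic lists had 7 and 3 peaks there (mean 5 ± 2.83, SD, n = 2). Sox2-positive replicates 1 and 2 had 5 and 17 (mean 11 ± 8.49, SD, n = 2). Incisor had 35 peaks, the lower molar 22 and the upper molar 19. Both ectoderm values lay below every whole-tooth value, while the Sox2-positive replicates differed from each other by more than replicate 1 differed from ectoderm. Groups of 2 against 2 cannot give a two-sided exact permutation p under 0.333, and single whole-tooth libraries allow no test.

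**Figure D1:**
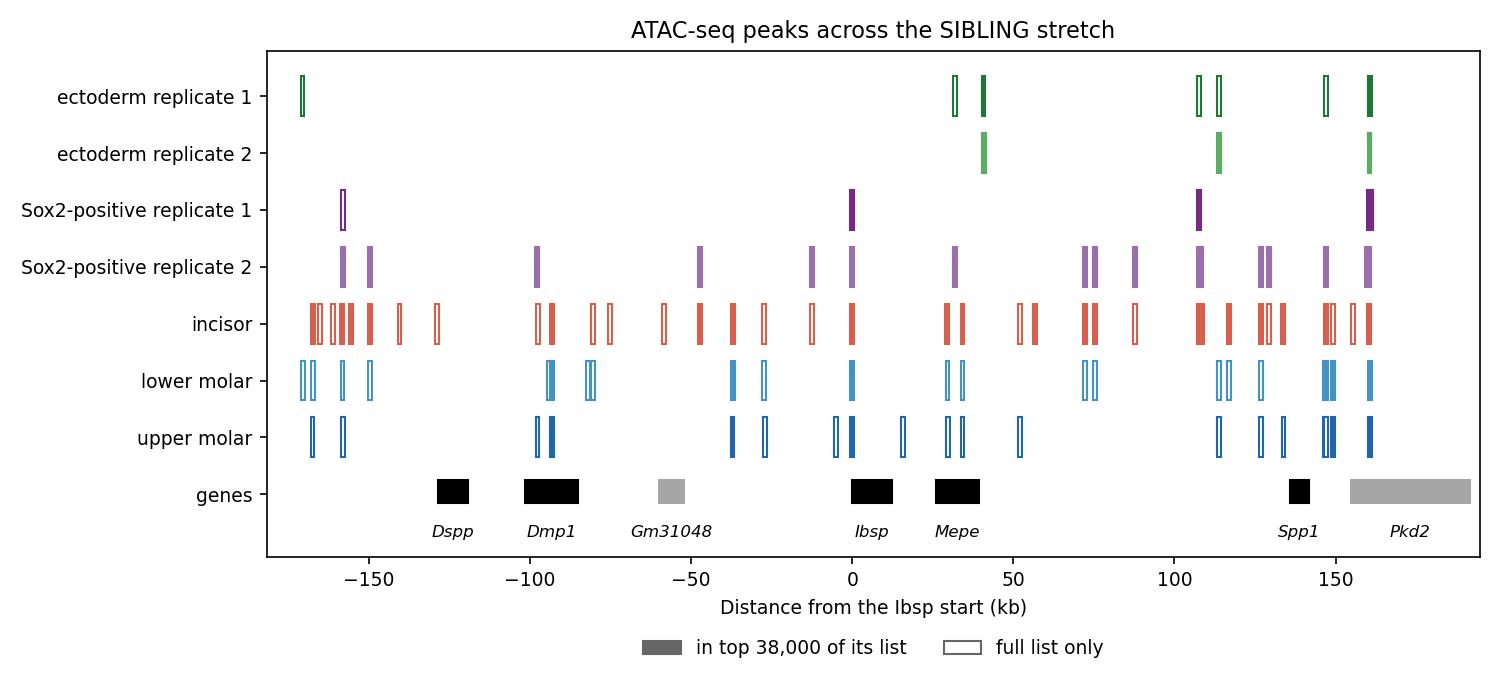
Peaks of each library (rows) by distance from the Ibsp start in kb, with member genes in black and Gm31048 and Pkd2 in grey. Each box marks 1 peak at its centre and is drawn wider than the peak; filled boxes are among the top 38000 of their list. The 2 ectoderm rows are empty from Dspp to Ibsp, incisor has 35 peaks, and a peak over the Pkd2 start is present in all 7 rows.

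The order of the libraries depended in part on list length. Per 10000 peaks and at 38000 peaks per list by p-value, incisor stayed highest. On these scales Sox2-positive replicate 2 moved from below both molars to above them, and Sox2-positive replicate 1 from below ectoderm replicate 1 to above it. In the top 38000 by signal, Sox2-positive replicate 2 equalled incisor at 16 peaks. Sox2-positive replicate 1 and the upper molar there equalled ectoderm replicate 1 at 4. Per 10000 autosomal peaks of its own list, the stretch held 0.866 and 0.603 peaks in ectoderm, 1.20 and 4.44 in Sox2-positive replicates 1 and 2, 5.64 in incisor, 3.19 in the lower molar and 2.83 in the upper molar. With 38000 peaks from each list, replicates 1 and 2 of ectoderm held 2 and 3, those of the sorted cells 4 and 17, and single libraries 20 in incisor, 6 in the lower molar and 5 in the upper molar. Both molars thus dropped close to Sox2-positive replicate 1. They kept 27.3% and 26.3% of their peaks in the stretch, whereas 55.2% and 56.6% of their autosomal peaks were kept, so the molar peaks around these genes were mostly of low rank. Incisor kept 57.1% against 61.2%.

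**Figure D2:**
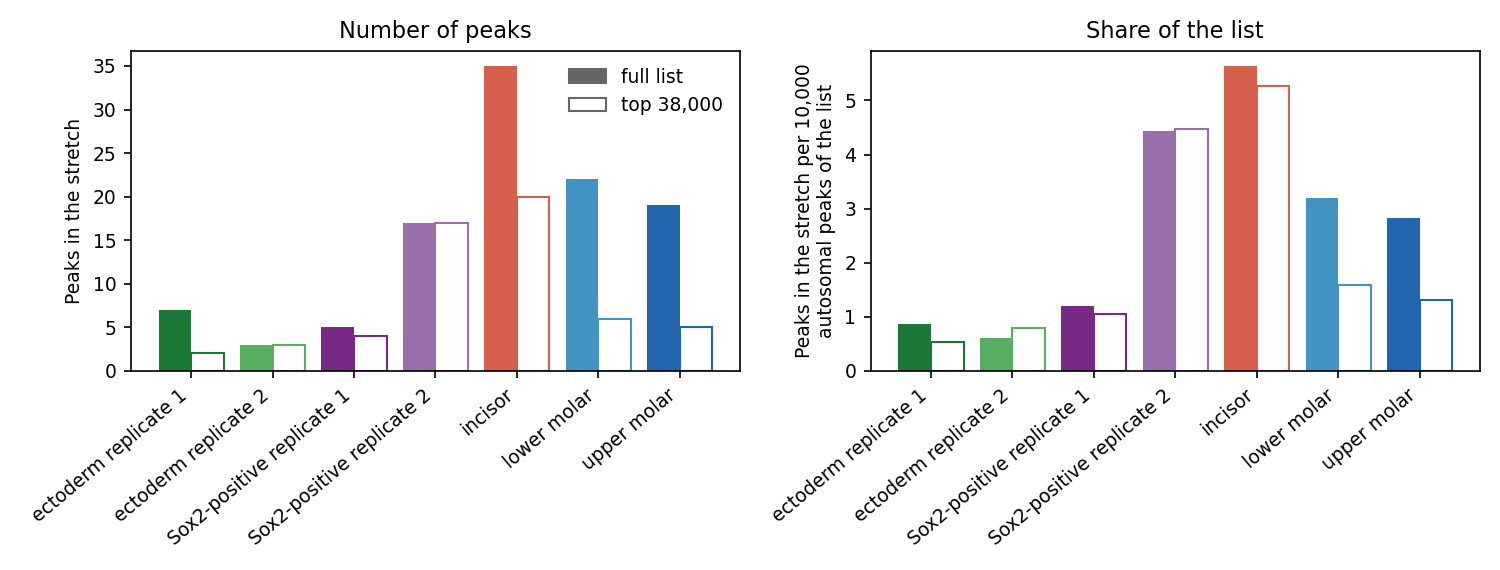
Peaks in the stretch per library, as numbers (left) and per 10000 autosomal peaks of the same list (right), for full lists (filled) and the top 38000 peaks (open). With the top 38000 taken by p-value, as drawn, incisor stands highest on each scale, at 35 and 20 peaks. Sox2-positive replicate 2 keeps all 17, as the cut keeps 99.1% of its list.

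Of the 44 regions, 37 (84.1%) had a peak in at least 1 P2 library and in neither ectoderm library, against 38.3% of all autosomal regions. The share was 89.3% of 28 regions at 38000 peaks per list, against 45.4%. Regions in whole teeth and in no ectoderm or Sox2-positive library numbered 25 (56.8%, against 23.2%), and 7 of these were in all 3 teeth (15.9%, against 3.94%). At 38000 peaks per list the whole-tooth regions were 10 of 28 (35.7%, against 15.7%). Incisor alone held 9 regions (20.5%, against 5.79%), or 7 at 38000 peaks per list (25.0%, against 4.36%), and the molars alone shared 1 (2.27%, against 6.26%). Regions shared by the sorted replicates and absent from ectoderm numbered 2 (4.55%, against 5.9%), a share near the background, and the same 2 were found in all 5 P2 libraries (4.55%, against 4.61%). At 38000 peaks per list there were 2 of the former (7.14%, against 12.0%) and 1 of the latter (3.57%, against 6.29%). Regions shared by the embryonic replicates and absent from sorted cells numbered 2 (4.55%, against 17.9%), or 1 at 38000 peaks per list (3.57%, against 15.7%). A single region had peaks in all 7 libraries (2.27%, against 14.2%, and at 38000 peaks per list 3.57%, against 19.2%), and it belonged to a neighbour: it covered the listed start of Pkd2, which encodes the cation channel polycystin-2, at chr5:104458875-104460513. In a tissue library, fewer cells with an open site and a less open site in the same cells cannot be told apart.

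Dspp encodes the main non-collagenous protein of dentin, which is cut into dentin sialoprotein and dentin phosphoprotein. Its gene, at chr5:104170703-104180127, held no peak in any library. The nearest was in incisor, at chr5:104170219-104170622, with its summit 347 bp outside the lower-coordinate end of the gene. The authors' −log10 p there was 3.30, at rank 57738 of the 62074 incisor peaks, so it was lost at 38000 peaks per list. In the other P2 libraries the closest summit to that gene end lay 29.4 kb away in Sox2-positive replicate 1, 21.2 kb in replicate 2, 21.3 kb in the lower molar and 29.4 kb in the upper molar. Ectoderm had none closer than 42.1 and 57.0 kb.

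The 50 kb before Dspp were richer than the gene itself. They held 9 regions, of which 8 had a peak in incisor, 4 in the lower molar, 2 in the upper molar, 1 and 2 in Sox2-positive replicates 1 and 2, and 1 and 0 in ectoderm. Of 128642 autosomal regions, incisor had a peak in 60256, the lower molar in 66288 and the upper molar in 64973. Sox2-positive replicates 1 and 2 had one in 39474 and 36541, and ectoderm in 78577 and 48060. The region at chr5:104140645-104141364, 29.7 kb from the gene end, had a peak in all 5 P2 libraries and in neither ectoderm library. Its −log10 p was 5.63 in incisor, in the top 22.4% of that list, and 3.92 in Sox2-positive replicate 2. In Sox2-positive replicate 1 (3.33), the lower molar (3.75) and the upper molar (3.33) it fell outside the top 38000. A second region, at chr5:104149306-104149755, had a peak in Sox2-positive replicate 2, incisor and the lower molar, with a −log10 p of 5.53 in incisor. These values rank a peak within its own list and are not compared between lists.

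Dmp1 encodes dentin matrix protein 1, a calcium-binding regulator of mineralisation in odontoblasts and osteocytes. RefSeq lists 2 starts for it, at 104197575 and 104202617. The first had no summit closer than 4.12 kb in any library. The second had one within 1 kb in Sox2-positive replicate 2 (925 bp), incisor (837 bp) and the upper molar (766 bp), all upstream of it and in 1 region at chr5:104201166-104201918. That region did not reach the printed window. At 38000 peaks per list it remained in Sox2-positive replicate 2 (−log10 p 4.06) and in neither tooth.

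Further into Dmp1, chr5:104205988-104206299 had a peak in all 3 whole teeth and in no sorted or embryonic library. Its −log10 p was 4.33 in incisor, 5.17 in the lower molar and 4.58 in the upper molar, and all 3 peaks stayed in the top 38000. The region between Dmp1 and Ibsp at chr5:104261778-104262386 showed the same pattern, with values of 4.54, 5.70 and 5.75. At 38000 peaks per list these 2 were the regions in all 3 whole teeth and in no other library (7.14% of 28 regions, against 1.77% of autosomal regions). Ectoderm had no peak at all inside Dspp or Dmp1 or between Dmp1 and Ibsp.

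Ibsp encodes bone sialoprotein, which nucleates hydroxyapatite. Its listed start lay under a peak in all 5 P2 libraries and in neither ectoderm library, in the region chr5:104298613-104299579. The summits were 31 and 50 bp upstream of the start in Sox2-positive replicates 1 and 2, 52 bp in incisor, 64 bp in the lower molar and 94 bp in the upper molar. They therefore fell in or near the part of the printed window that holds ATTGG and TTTATA.

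The −log10 p of the Ibsp peak was 3.93 and 4.18 in Sox2-positive replicates 1 and 2, 4.25 in incisor, 4.83 in the lower molar and 5.50 in the upper molar. Its rank within the list ran from the top 26.9% in the upper molar to the top 59.6% in Sox2-positive replicate 1. All 5 peaks stayed in the top 38000. Of 20665 autosomal protein-coding genes, 92 (0.445%) had this pattern of start peaks, and 128 (0.619%) at 38000 peaks per list.

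**Figure D3:**
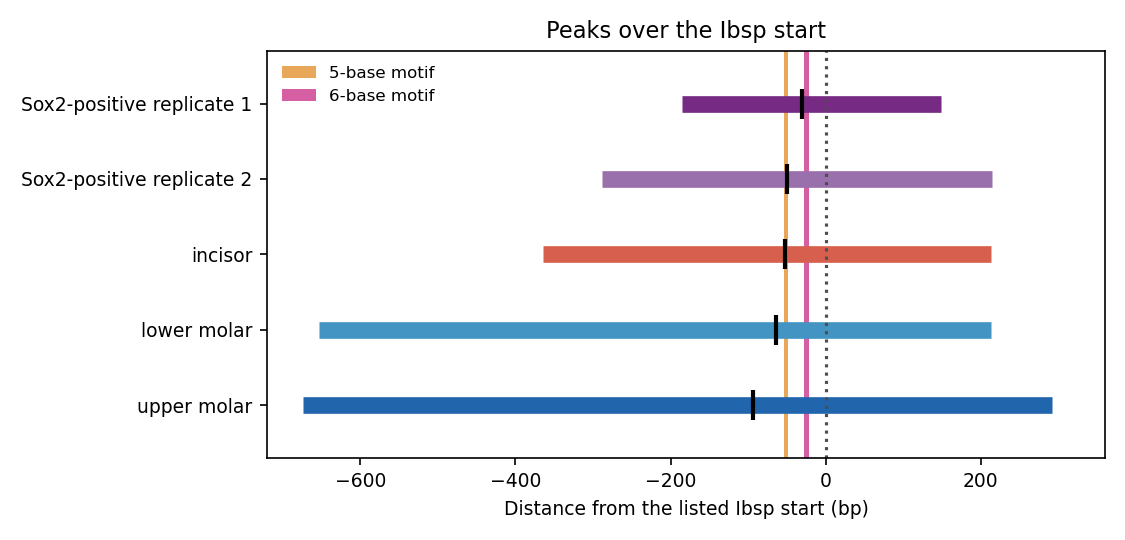
Extent of the peak over the Ibsp start in the 5 P2 libraries (bars, bp from the listed start), with each summit as a black tick; neither ectoderm library had a peak there. Vertical bands mark the CCAAT box (5-base motif) and the TATA-like box (6-base motif) of the printed window, and the dotted line the start; the 5 summits lie 31 to 94 bp upstream.

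Mepe encodes a phosphoglycoprotein of osteocytes and odontoblasts whose acidic C-terminal peptide restrains mineralisation. No library had a summit within 1 kb of its start. Inside the gene, the regions chr5:104328452-104329237 and chr5:104333376-104333648 each had a peak in all 3 whole teeth and in no other library, and in both cases the incisor peak alone stayed in the top 38000. In the second region the lower molar peak missed that cut narrowly, at rank 38105 of 68877. The incisor peak there had rank 34823 of 62074. A further region inside the gene, chr5:104330466-104331930, had a peak in ectoderm replicate 1 and Sox2-positive replicate 2. The gene table gives no exons, so introns and exons cannot be told apart here.

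Just past the end of Mepe lay the one region of the stretch seen in ectoderm alone, at chr5:104339773-104340229. Its −log10 p was 5.46 and 4.37 in ectoderm replicates 1 and 2, and both peaks stayed in the top 38000. Regions in ectoderm and no P2 library made up 2.27% of the stretch, against 30.5% of autosomal regions, and 7.14% at 38000 peaks per list, against 21.9%. The other region shared by the embryonic replicates and absent from sorted cells, at chr5:104412724-104413397, also had a peak in both molars.

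Spp1 encodes osteopontin, which binds integrins and CD44, restrains crystal growth and is also made by macrophages and osteoclasts. No library had a peak within 1 kb of either listed start. The nearest summits to the upstream start were 1.92 kb away in incisor and 1.94 kb in the upper molar, in the region chr5:104432820-104433360. They were 6.57 kb away in Sox2-positive replicate 2, 8.98 kb in the lower molar, 24.4 kb in Sox2-positive replicate 1, and 11.3 and 21.9 kb in ectoderm.

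The 96.5 kb between Mepe and Spp1 held 13 regions. Incisor had a peak in 11 of them, Sox2-positive replicate 2 in 7, the lower molar in 5, the upper molar in 4, ectoderm in 3 and 2, and Sox2-positive replicate 1 in 1. In the same order, the libraries had a peak in 60256, 36541, 66288, 64973, 78577 and 48060, and 39474 of 128642 autosomal regions. At 38000 peaks per list incisor had 8 there, Sox2-positive replicate 2 had 7 and Sox2-positive replicate 1 had 1. Ectoderm replicates 1 and 2 then had 1 and 2, and each molar 0. The region chr5:104425947-104426395, 8.94 kb before Spp1, had a peak in Sox2-positive replicate 2 and all 3 teeth, with a −log10 p of 5.09 in Sox2-positive replicate 2 and 5.06 in incisor. Its peaks in the lower molar (3.45) and upper molar (3.33) fell outside the top 38000. After Spp1, chr5:104448325-104448662 had a peak in the 3 teeth, of which the lower molar (4.65) and upper molar (5.09) peaks stayed in the top 38000 and the incisor peak (3.46) did not.

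The Sox2-positive replicates were unlike each other at these genes. Of the 16 regions with a peak in replicate 2, 15 also had one in incisor and 4 in replicate 1. The share in incisor, 93.75%, was close to the 92.62% found over the autosomes. All 4 regions of replicate 1 were found in replicate 2. Thus 12 regions of the stretch were in replicate 2 and not 1 (27.3%, against 6.31% of autosomal regions), and 0 were in replicate 1 and not 2 (against 8.59%). On the autosomes as a whole, 77.78% of the regions of replicate 2 were in replicate 1, and the corresponding share here was 25%. Replicate 2 and incisor but not replicate 1 held 11 regions (25.0%, against 5.19%), of which 5 were in no other library (11.4%, against 1.49%). Replicate 1 and incisor shared 0 regions found in no other library (against 0.462%). Incisor had 15 regions found in no molar (34.1%, against 9.24%). Without replicate 1, regions in sorted cells and not in ectoderm numbered 12, in place of 2. Without replicate 2, regions in whole teeth and in no other library numbered 35, in place of 25. Most of the replicate 2 peaks ranked low in its list: in the stricter 50% of each list, replicates 1 and 2 had 1 and 3 peaks in the stretch.

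Start peaks at other matrix genes of dentin and bone also differed in number between these replicates, with no test possible. Of 9 such genes, replicate 2 had a start peak at all 9 and replicate 1 at 4, against 57.1% and 58.2% of all genes. Summed peaks within 50 kb of the same 9 genes were close, at 62 in replicate 1 and 65 in replicate 2. Bglap and Bglap2, adjacent near-identical genes for osteocalcin whose peaks may be shared, had one in replicate 2 and the 3 teeth and not in replicate 1 or ectoderm. Mgp, an inhibitor of calcification, Postn, a matrix protein of periosteum and periodontal ligament, and Nes, an intermediate filament gene expressed in odontoblasts, had a start peak in every library but replicate 1. Summed peaks within 50 kb of the 11 dental mesenchyme markers were 72 and 66 in replicates 1 and 2, between 90 and 114 in whole teeth and 83 and 57 in ectoderm, so replicate 2 was not the higher there. The part of these markers in the result was not tested.

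Summed over genes and libraries, 9 of 35 pairs of a member and a library had a summit within 1 kb of a start, or of either end for Dspp: 5 for Ibsp, 3 for Dmp1 and 1 for Dspp. No member had one in ectoderm, where 66.1% and 63.6% of autosomal protein-coding genes did. In Sox2-positive replicates 1 and 2 the members numbered 1 and 2 of 5, against 58.2% and 57.1% of all genes. They were 3 of 5 in incisor (against 60.4%), 1 in the lower molar and 2 in the upper molar (against 61.7% each). At 38000 peaks per list 6 pairs were left: 0 in ectoderm replicates 1 and 2 (against 58.7% and 60.4%), 1 and 2 in Sox2-positive replicates 1 and 2 (against 56.9% each), and Ibsp alone in incisor (against 54.8%), the lower molar (against 54.9%) and the upper molar (against 55.0%). Mepe and Spp1 fell among the 30.7% of genes with no start peak in any library, and Dspp joined them at 38000 peaks per list (34.9%).

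Receptor and mineral genes that act with the SIBLING proteins had start peaks in more libraries than the members, and processing genes were near the share of all genes. All 6 receptor genes (integrin subunits Itgav, Itgb1, Itgb3, Itgb5 and Itga8, and Cd44) and all 7 measured phosphate and mineral genes, such as Alpl and Phospho1, had a start peak in all 7 libraries. Start peaks in all 7 libraries were found at 52.9% of genes. At 38000 peaks per list 5 of the 6 receptor genes and 5 of the 7 mineral genes kept them, as did 2 of 6 processing genes and 7 of 12 regulators, against 48.9% of genes. Of 6 measured processing genes, 3 had all-library start peaks in full lists, among them Fam20c, the kinase that phosphorylates SIBLING proteins, and Bmp1, a protease that cleaves them. Mmp20, an enamel protease that also cuts dentin matrix proteins, had a start peak in the 3 whole teeth and nowhere else. At 38000 peaks per list it was left in incisor and the lower molar. Of 12 regulators 9 had all-library start peaks, including Dlx3 and Msx2, and Sp7, which kept 4 libraries at 38000 peaks per list. Runx2, the master regulator of osteoblasts, shared the Ibsp pattern, with start peaks in all 5 P2 libraries and neither ectoderm library, also at 38000 peaks per list. So did Omd, a bone matrix proteoglycan gene, in full lists.

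**Figure D4:**
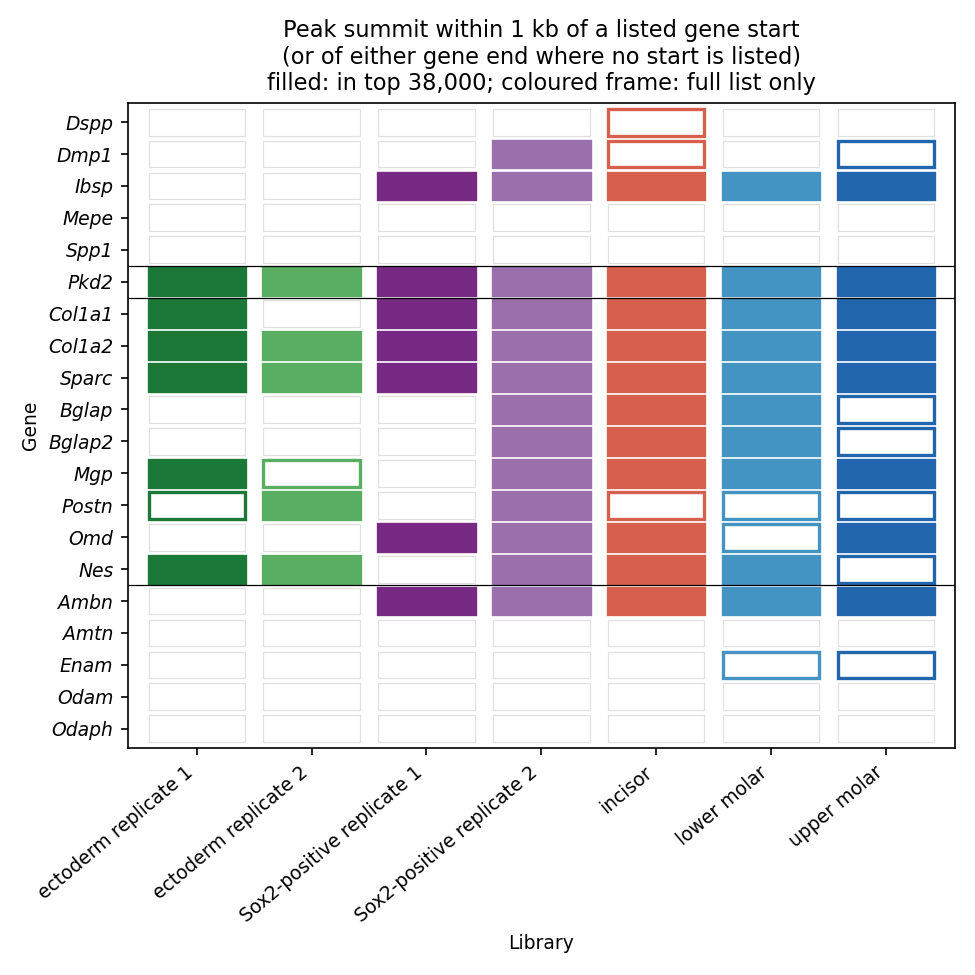
Genes (rows) by library (columns); a coloured cell marks a peak summit within 1 kb of a listed start, or of either gene end where no start is listed; it is filled where the peak is among the top 38000 and an open frame where it is in the full list alone. The members stand at the top, then Pkd2, 9 other matrix genes and 5 enamel relatives; Ibsp and Ambn show the same 5 P2 libraries and no ectoderm, and Mepe and Spp1 are empty throughout.

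The enamel relatives of the family, made by epithelial ameloblasts, were compared as a related gene group. Ambn, which encodes ameloblastin, had the same start pattern as Ibsp, in full lists and at 38000 peaks. Enam had a start peak in both molars, lost at 38000 peaks per list, and Amtn, Odam and Odaph had none. The stretch around Amtn, Ambn and Enam (chr5:88326108-88556049, 229.9 kb) held 5 and 4 peaks in ectoderm, 2 in each Sox2-positive replicate and 7 in each whole tooth. The Sox2-positive replicates had equal counts there, unlike the 5 and 17 at the SIBLING genes. Of its 12 regions, 7 were in a P2 library and not in ectoderm, against 38.3% of autosomal regions. The class in all 3 teeth and nowhere else had 0 of 12, and at an autosomal share of 3.94% so few regions show no contrast. The difference in peak counts between the stretches has no test.

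Between the first and last member gene, the top 38000 peaks gave counts of 1 and 2 in ectoderm, 2 and 12 in Sox2-positive replicates 1 and 2, 14 in incisor and 3 in each molar. Among 16523 genes over 1 Mb away with at least 5 such peaks within 50 kb, summed over libraries, Usp36 had the most similar profile over the 7 libraries (Pearson r 0.996), with 5 and 5, 6 and 13, 14, 6 and 6 peaks in the same order. Galnt2 (r 0.992) and Col24a1, a collagen gene (r 0.987), followed. The next, 1700029P11Rik and Arfgef1 (r 0.986 each), varied by 1 peak between libraries. These are descriptions over 7 libraries that differ in tissue and list length together.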

How the data were processed

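ATAC-seq peak lists of 7 libraries were used, 1 per library. Per the submitters' processing notes, the tools named are FastQC, Trimmomatic, Bowtie2, deepTools and Genrich and the build is mm10, which is GRCm38. Versions, options and the transposase shift are not given in the sources used here. Each deposited peak has a signal, at least 200.0 in every list, and a −log10 of the p-value, from 2.56 to 17.8. The deposited score reaches a ceiling and was not used, nor was the q-value field, which holds −1. None is normalized between libraries, so they rank peaks within 1 list. Lists hold no counts, and depth is unknown.

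Autosomal peaks were kept, and peaks sharing at least 1 bp were joined. The shorter lists are the 38000 peaks with the largest −log10 p, ties taken by signal. Gene positions came from RefSeq GRCm38.p6 with 20665 autosomal protein-coding genes. Of these, 16457 have starts in the promoter sequence table, where a summit within 1 kb of any start counted; for the others, Dspp included, either gene end counted. No test was run. Code was tested on simulated lists (Python 3.11.15, pandas 2.3.3).

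The members and gene lists were chosen with earlier results of these data known. Named genes were the members, protein-coding genes overlapping the stretch, lists of receptors, processing, matrix, mineral and regulator genes, enamel relatives, and the 5 genes most alike in profile. Phex and Amelx, not autosomal, and Ankh, with no entry of that symbol, were not analysed here. Alternatives were list length by p or signal, the stricter 50% of each list, flanks of 0 or 100 kb, 50% cover, 200 bp summit windows, gene windows of 500 bp and 2.5 kb, any base of a peak, and leaving out each replicate.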

Additional observations from a re-analysis of the deposited data

How the results depend on the processing

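All alternatives were planned. The order of libraries changed with them: Sox2-positive replicate 2 was below both molars in full lists (17 against 22 and 19) and above them at the top 38000 by p (17 against 6 and 5), and Sox2-positive replicate 1 went from below ectoderm replicate 1 (5 against 7) to above it (4 against 2). Peak counts in the stretch depended on list length: the top 38000 by p gave 2 in ectoderm replicate 1, 20 in incisor, 6 in the lower molar and 5 in the upper molar, and the top 38000 by signal gave 4, 16, 5 and 4. By signal, Sox2-positive replicate 2 also had 16 peaks, so incisor was no longer highest alone. Ectoderm replicate 1 was then level with the upper molar and with Sox2-positive replicate 1, at 4 each. The stricter 50% of each list gave 2 and 1 in ectoderm, 1 and 3 in Sox2-positive replicates 1 and 2, 9 in incisor and 5 in each molar, so that the gap between the Sox2-positive replicates narrowed to 1 against 3 peaks. Sox2-positive replicate 2 was then below both molars again, and Sox2-positive replicate 1 below ectoderm replicate 1. With no flank there were 4 peaks in ectoderm replicate 1, 2 in Sox2-positive replicate 1, 23 in incisor and 14 in the lower molar. With 100 kb there were 15 and 8 in ectoderm and 10 in Sox2-positive replicate 1.

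Regions in whole teeth and in no ectoderm or Sox2-positive library numbered 10 by p, 8 by signal and 10 in the stricter 50%, and 25 to 35 when 1 replicate was left out. Regions in both ectoderm and neither Sox2-positive library numbered 1 by p, 0 in the stricter 50% and 1 with 50% cover, and 2 to 3 without 1 replicate. Those in both Sox2-positive and neither ectoderm library numbered 0 in the stricter 50% and 1 with 50% cover, and 2 to 12 without 1 replicate, the highest being without Sox2-positive replicate 1. With summit windows 0 regions were in all 7 libraries, in place of 1. Member starts with a peak fell from 9 to 2 pairs in the stricter 50%. The other 44 comparisons stayed within 1.5 times the full-list count. No paired analysis was possible because the results are counts of peaks with no test. Unknown read depth limits every statement that a peak was missing.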

Other observations

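Beyond the lower-coordinate edge of the stretch lies Sparcl1 (chr5:104079108-104114088), a relative of SPARC, the matrix protein from whose gene family the secretory calcium-binding phosphoproteins are thought to derive. A peak within 1 kb of an end of Sparcl1 was found in ectoderm replicates 1 and 2 and in the 3 whole teeth, but not in the sorted cells. Inside the gene there were 6 and 4 peaks in ectoderm, 4 and 3 in Sox2-positive replicates 1 and 2, 7 in incisor, 6 in the lower molar and 5 in the upper molar. Its ectoderm counts were therefore within the range of the P2 libraries, in contrast to the empty ectoderm rows from Dspp to Ibsp. Gm17660, listed with the synonym Scpppq1 and lying next to Sparcl1, had 1 peak inside it in ectoderm replicate 1 and in each molar, and none in the other libraries.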
